A study of Caenorhabditis elegans with 2 samples.

Results

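The 9 genes described here make up the core of the Sma/Mab pathway, the bone morphogenetic protein (BMP) pathway that sets body size in Caenorhabditis elegans. They were taken by name out of 19985 protein-coding genes: the ligand gene dbl-1, the receptor genes sma-6 and daf-4, the Smad genes sma-2, sma-3 and sma-4, the cofactor gene sma-9, the downstream gene lon-1 and the inhibitor gene lon-2. The measurement was chromatin immunoprecipitation sequencing of ZAG-1, a ZEB-family transcription factor with zinc fingers and a homeodomain, in whole L2 larvae of both sexes. The strain, OP83, carries unc-119(ed3) III and the transgene insertion wgIs83, from which eGFP-tagged ZAG-1 is made. There were 2 biological replicates, which form a single group with no second condition. Peaks came from all tissues mixed, so a site bound strongly in few cells and one bound weakly in many cannot be told apart.

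In this pathway the ligand DBL-1, secreted largely by neurons, binds a receptor complex on the epidermis, and the receptors phosphorylate Smad proteins that then move to the nucleus and regulate transcription. Mutants that lose the ligand, a receptor, a Smad or the cofactor are small (Sma), while mutants that lose a negative regulator are long (Lon). The same pathway patterns the male tail and the postembryonic mesoderm and acts in innate immunity.

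ZAG-1 peaks in the authors' strictest list were found at 3 of the 9 genes, and sma-9 held most of them. The replicates' ranks lay 29.3-fold apart at the lon-2 peak, 9.70-fold at the strongest sma-9 peak and 2.58-fold at the daf-4 peak. The median over the peaks of that list with a counterpart in both replicates was 1.80-fold. A peak was counted for a gene if its summit lay nearest to that gene's annotated 5′ end, within 5 kb, or inside the gene body. The authors kept 1803 peaks under a limit on the irreproducible discovery rate (IDR), a measure of how well replicates rank the same peaks, and 6 of these fell to the pathway: 4 to sma-9, 1 to daf-4 and 1 to lon-2. By the same rule 7.76% of all protein-coding genes had a peak in that list. The list equals the 1803 highest-scoring peaks of both replicates pooled, and 1783 of them overlapped a peak of each replicate. No IDR-thresholded peak was assigned to dbl-1, sma-6, sma-2, sma-3, sma-4 or lon-1. The genes were chosen by name with peak counts and scores of these lists already known, so those values are described here without a test.

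In the authors' list from both replicates pooled, which also holds weak candidates, 7 of the 9 genes had at least 1 of 22 peaks, against 45.5% of all protein-coding genes. Of those 22 peaks, 6 were the IDR-thresholded ones and 16 lay below that threshold, with scores from 9.50 to 24.0 (median 13.9). The lowest score in the IDR-thresholded list was 29.6. The pathway's lowest scores inside it were those of the sma-9 peak nearest to the gene (32.7), the lon-2 peak (33.6) and the daf-4 peak (34.5). The highest outside it were those of further peaks of lon-2 (24.0) and daf-4 (18.9), which were well below the threshold, at ranks 2522 and 3675 of the pooled list. Scores are the authors' own and are compared only within a list. Coordinates are those of build ce11. The genes differed in how much sequence could bring them a peak: the median was 8.5 kb over the 9 genes and 4.5 kb over all protein-coding genes.

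**Figure D1:**
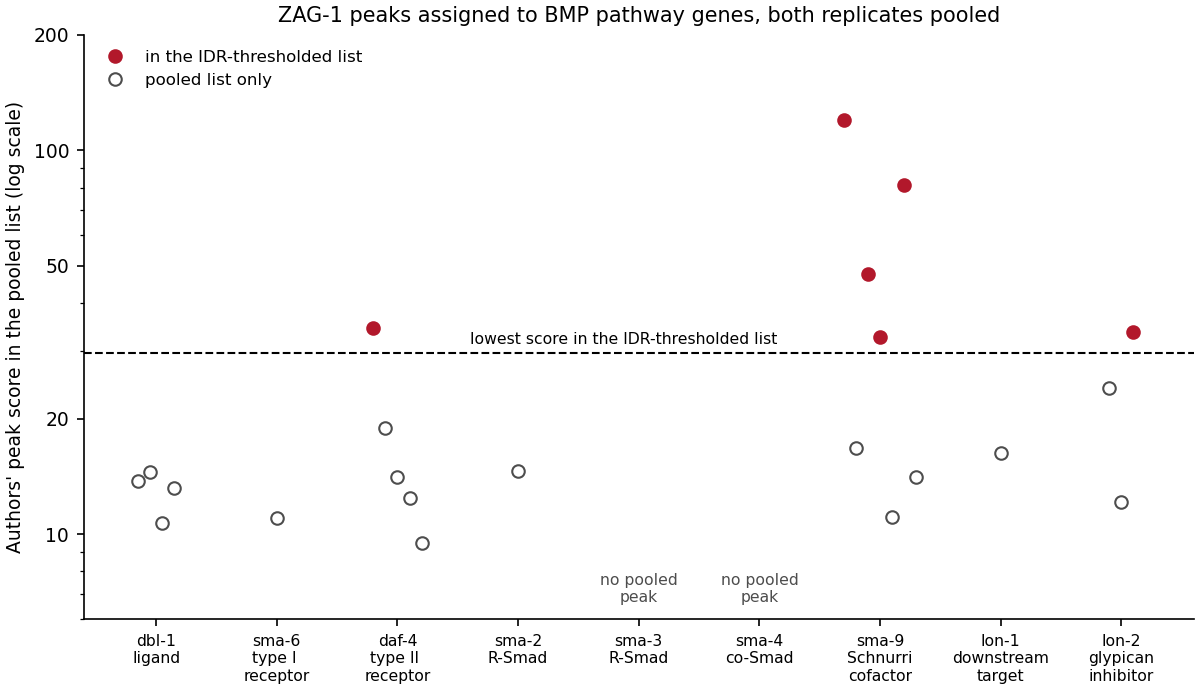
Each point is a peak of the pooled list, placed by the gene it was assigned to (horizontal) and the authors' score (vertical, log scale); filled red points are in the IDR-thresholded list and open points are not. The dashed line is the lowest IDR-thresholded score, 29.6; 4 red points stand at sma-9 and 1 each at daf-4 and lon-2, while sma-3 and sma-4 have no pooled peak.

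dbl-1 encodes the BMP-like ligand of the pathway (WBGene00000936, chromosome V, 6758135 to 6760418, plus strand, 2284 bp). Its region held 4 pooled peaks, all upstream of the gene, at 4842, 3120, 2921 and 824 bp from the 5′ end. Their scores were 13.8, 14.5, 10.7 and 13.2, all below the IDR-thresholded range. Each overlapped a weak peak of both replicates. The peaks at 3120 and 824 bp also overlapped the non-coding RNA genes T25F10.7 and T25F10.9. The strongest dbl-1 peak of replicate 1 had a score of 8.18 and ranked 9321 of 24146, and that of replicate 2 had a score of 8.48 and ranked 3558 of 29374. These were not the same site: the peak of replicate 1 lay 4807 bp upstream and that of replicate 2 lay 1894 bp downstream of the 5′ end, in an untranslated region. The nearest IDR-thresholded summit of any gene was 27192 bp away.

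sma-6 encodes the type I receptor, a serine/threonine kinase (WBGene00004860, chromosome II, 6324484 to 6327355, plus strand). A single pooled peak was assigned to it, in a coding exon 1052 bp downstream of the 5′ end, ranking 10874 of 16325. Replicate 1 had 2 weak peaks at the gene and replicate 2 had 3, the strongest ranking 15505 and 14426. Weak as it was, this pooled peak was the only one of the 22 (4.55%) to hold the E-box CAGGTG within 100 bp of its summit. Over all pooled windows the share was 4.45%, so nothing is read from this count. The site is shown only as the single case and was singled out after its values were seen. It lay 45 bp from the summit, at chrII:6325477-6325506 on the plus strand, with the E-box in capitals.
sma-6 site: gtattacaagagCAGGTGagacagttttta

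daf-4 encodes the type II receptor, which the BMP pathway shares with the pathway that controls dauer formation (WBGene00000900, chromosome III, 5625135 to 5632323, plus strand). Its IDR-thresholded peak (5621156 to 5621531) lay in intergenic sequence 3791 bp upstream of the 5′ end. The next protein-coding gene body, that of basl-1, was 4083 bp from the summit, and basl-1's own 5′ end was 6396 bp away. The peak had a score of 34.5 and ranked 1420 of 1803. Replicate 2 had its counterpart at rank 787 with a summit 10 bp away, while in replicate 1 the overlapping peak ranked 2029 and its summit was displaced by 174 bp. A weaker pooled peak (score 18.9) overlapped the same stretch, with its summit in the non-coding RNA gene C05D2.13, where the summit of replicate 1 also lay. A further 3 pooled peaks, with scores of 14.1, 12.4 and 9.50, lay 2550 and 1143 bp upstream and 1065 bp downstream of the 5′ end. The replicates therefore both marked the distal site, but only replicate 2 placed it among its 1803 strongest peaks.

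The 201 bases centred on the daf-4 summit are shown because they hold more GAGAGA elements than any other of the 6 windows. They are the plus strand of chrIII:5621244-5621444, with GAGAGA (or its complement TCTCTC) and ACGCAG in capitals.
daf-4 upstream summit: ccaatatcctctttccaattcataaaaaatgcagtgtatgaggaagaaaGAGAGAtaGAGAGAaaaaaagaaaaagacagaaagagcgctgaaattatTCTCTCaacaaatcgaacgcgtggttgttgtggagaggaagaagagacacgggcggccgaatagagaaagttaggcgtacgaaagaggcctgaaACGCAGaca

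None of the Smad genes had an IDR-thresholded peak, and sma-3 and sma-4 were the 2 genes of the pathway with no pooled peak. sma-2 and sma-3 encode receptor-regulated Smads and sma-4 the common Smad that partners them, all on chromosome III. sma-2 (8749680 to 8757089, plus strand) had 1 pooled peak, 66 bp downstream of its 5′ end, with a score of 14.6 and rank 5865. That peak overlapped a peak of replicate 2 (rank 3275) and none of replicate 1, and it also fell inside the body of the overlapping gene ugtp-1. Replicate 1 had 5 other weak peaks at sma-2, with scores from 5.78 to 7.28, all of them inside ugtp-1 or tomm-70 as well. sma-3 (6860974 to 6863968, minus strand) had no pooled peak, no peak in replicate 1 and 1 in replicate 2, at rank 28199 of 29374. sma-4 (5816232 to 5820204, plus strand) had no pooled peak, and its strongest peaks ranked 22666 in replicate 1 and 9433 in replicate 2. The replicate lists held a peak for 8 of the 9 pathway genes in replicate 1, against 59.4% of all protein-coding genes, and for 9 of 9 in replicate 2, against 67.0%, so a weak peak in either is common. The nearest IDR-thresholded summits lay 8051 bp from sma-2, 23864 bp from sma-3 and 8547 bp from sma-4, and were assigned to other genes (pdhk-2, brd-1 and R12B2.8). A peak list does not show that binding is absent where no peak was called.

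sma-9 encodes the Schnurri homolog, a large zinc finger protein that acts with the Smads in the nucleus, and had the most peaks of the pathway in every list. It lies on chromosome X (WBGene00004862, 10769282 to 10782973, plus strand, 13692 bp) with 16 annotated protein-coding transcripts. The 4 IDR-thresholded peaks made up 66.7% of those at the pathway. They lay 2988, 1418 and 782 bp upstream and 2025 bp downstream of the 5′ end. From the first to the last summit they spanned 5013 bp, with gaps of 1570, 636 and 2807 bp.

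The distal upstream peak was the strongest of the pathway (10766106 to 10766481), with a score of 119.6 and rank 79 of 1803. The intronic peak came next (10771119 to 10771494, score 81.0, rank 246). It lay in intron 1 (3728 bp) of the transcript with the longest span, 1774 bp before the next annotated transcript start. The other upstream peaks had scores of 47.6 (10767676 to 10768051, rank 797) and 32.7 (10768312 to 10768687, rank 1545). No other protein-coding gene competed for these summits: the nearest other gene body, R07A4.3, lay 8142 bp from the most distal summit. Scores did not grow towards the 5′ end, where the peak at 114 bp upstream reached only 11.1 in the pooled list. Weaker pooled peaks also lay 2223 bp upstream (16.8) and 3005 bp downstream (14.1).

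**Figure D2:**
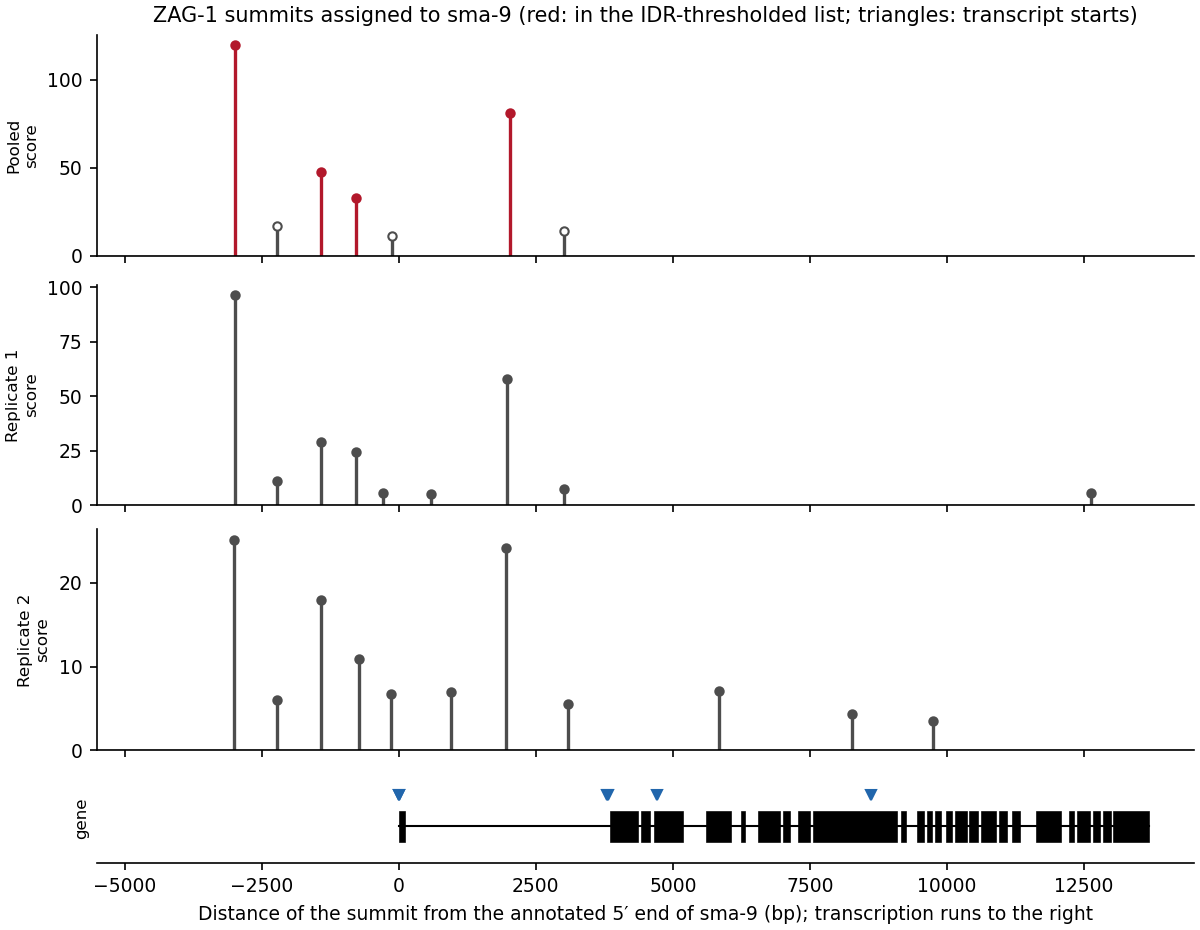
Summits assigned to sma-9 are placed by distance from its annotated 5′ end in bp (horizontal), with the authors' score as height and a separate vertical axis for the pooled list, replicate 1 and replicate 2. The bottom row shows the exons of the longest-spanning transcript and the transcript starts. The red IDR-thresholded summits at 2988, 1418 and 782 bp upstream and 2025 bp downstream have counterparts in both replicates. So does the weak pooled peak 3005 bp downstream. The peaks beyond that one along the gene body, found in single replicates, are weak.

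Both replicates showed all 4 sma-9 peaks at nearly the same summits. In replicate 1 their counterparts ranked 46, 890, 1241 and 189, in order along the gene, and in replicate 2 they ranked 446, 872, 2152 and 488. The summits differed from the IDR-thresholded ones by 0 to 46 bp in replicate 1 and by 4 to 60 bp in replicate 2. Only the peak 782 bp upstream fell outside the 1803 strongest peaks of a replicate, at rank 2152 in replicate 2. The order of strength was led by the distal and the intronic peak in each replicate, but the distal peak stood out more in replicate 1 (scores of 96.4 and 58.0) than in replicate 2 (25.1 and 24.1).

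A gene with 4 or more IDR-thresholded peaks was rare: 21 of all protein-coding genes, or 0.105%, sma-9 among them. Those with the most were lin-14 (7 peaks), ercc-1 and ppfr-1 (6 each), followed by 7 genes with 5 peaks, of which daf-16 and gpb-1 come first by name. Whether this count goes with size was not tested. The sequence that could bring sma-9 a peak was 18.7 kb, and among the 376 genes with at least as much, 109 had an IDR-thresholded peak and 13 (3.46%) had 4 or more. Per kb of such sequence sma-9 had 0.214 IDR-thresholded peaks, daf-4 0.0820 and lon-2 0.0761, and the other 6 genes had 0. The 9 genes together had 0.0709, against 0.0169 over all protein-coding genes. Of all protein-coding genes 18434 had no such peak, so a gene picked for holding a peak tends to lie above that rate. Genes such as gpb-1 (0.463) had more than sma-9. In the pooled list there were 0.549 peaks per kb at dbl-1, 0.410 at daf-4, 0.374 at sma-9, 0.242 at sma-6 and 0.228 at lon-2. lon-1 (0.117) and sma-2 (0.0968) had fewer. At dbl-1, daf-4 and lon-2 some of these pooled peaks overlapped each other. No rate over all protein-coding genes is given for the pooled list, so no order is read from these values.

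The 201-base windows around the 4 sma-9 summits are shown in order along the gene, so that the elements they share can be compared. All are plus-strand sequence of chromosome X, the strand that sma-9 is read on: chrX:10766194-10766394, chrX:10767764-10767964, chrX:10768400-10768600 and chrX:10771207-10771407. Capitals mark GAGAGA or its complement TCTCTC. They also mark CACTTG, the complement of the E-box CAAGTG, and the repeat element CACACA.
sma-9, 2988 bp upstream: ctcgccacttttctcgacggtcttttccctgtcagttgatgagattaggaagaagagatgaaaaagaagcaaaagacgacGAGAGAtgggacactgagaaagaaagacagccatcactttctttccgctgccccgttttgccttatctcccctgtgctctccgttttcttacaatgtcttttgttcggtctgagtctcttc
sma-9, 1418 bp upstream: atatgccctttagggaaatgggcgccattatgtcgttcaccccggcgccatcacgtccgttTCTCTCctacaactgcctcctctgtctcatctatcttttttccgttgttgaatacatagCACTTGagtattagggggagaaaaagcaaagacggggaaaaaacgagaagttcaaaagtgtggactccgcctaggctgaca
sma-9, 782 bp upstream: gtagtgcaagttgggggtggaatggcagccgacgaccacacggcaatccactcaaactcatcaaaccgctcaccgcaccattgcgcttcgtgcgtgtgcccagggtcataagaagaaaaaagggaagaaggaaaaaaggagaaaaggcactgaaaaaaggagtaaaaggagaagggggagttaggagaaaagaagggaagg
sma-9, 2025 bp downstream: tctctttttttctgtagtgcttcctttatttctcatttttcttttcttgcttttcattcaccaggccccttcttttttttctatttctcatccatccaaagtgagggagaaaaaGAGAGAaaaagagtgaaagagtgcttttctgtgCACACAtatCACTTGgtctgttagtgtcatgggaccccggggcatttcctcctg

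GAGAGA was present in 3 of these 4 windows and the E-box CAAGTG in 2 of them, at 1418 bp upstream and in the intron. The window at 782 bp upstream held none of the 10 elements searched, but a run of 38 bases in it consists of A and G alone. None of the 4 held CAGGTG, the E-box that ZEB proteins bind.

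lon-1 encodes a secreted protein of the CRISP family that is repressed by the pathway and restrains body length (WBGene00003055, chromosome III, 5474476 to 5478005, plus strand). It had 1 pooled peak, 3865 bp upstream, with a score of 16.3 and rank 4851. That site ranked 2788 of 29374 in replicate 2 but 11926 of 24146 in replicate 1. The nearest IDR-thresholded summit was 28848 bp away, farther than for any other gene of the pathway.

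lon-2 encodes a glypican, a cell-surface proteoglycan that binds DBL-1 and restrains signalling (WBGene00003056, chromosome X, 4738964 to 4749083, minus strand). Its IDR-thresholded peak (4741149 to 4741524) lay 7746 bp downstream of the 5′ end, in intron 9 of 11 exons, an intron of 3433 bp. The score was 33.6 and the rank 1479 of 1803. The replicates disagreed on it: the counterpart ranked 908 in replicate 1, with a score of 28.7, and 26561 of 29374 in replicate 2, with a score of 3.22. Replicate 2 gave it a −log10 q-value of 0.05, against 2.35 in replicate 1. Only 15 of the 1783 IDR-thresholded peaks with a counterpart in both replicates (0.841%) had ranks as far apart, here by 29.3-fold. The pooled peak 6703 bp downstream, which missed the IDR threshold with a score of 24.0, was more even, at rank 2578 in replicate 1 and 4882 in replicate 2.

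The lon-2 window is shown as the one summit outside sma-9 with none of the 10 elements, so it has no capitals. It is the plus strand of chrX:4741237-4741437, opposite to the strand lon-2 is read on.
lon-2 intron 9 summit: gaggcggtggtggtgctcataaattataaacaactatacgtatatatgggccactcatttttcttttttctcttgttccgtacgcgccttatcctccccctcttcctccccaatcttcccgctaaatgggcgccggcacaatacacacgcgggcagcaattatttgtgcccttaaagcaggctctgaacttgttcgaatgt

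**Figure D3:**
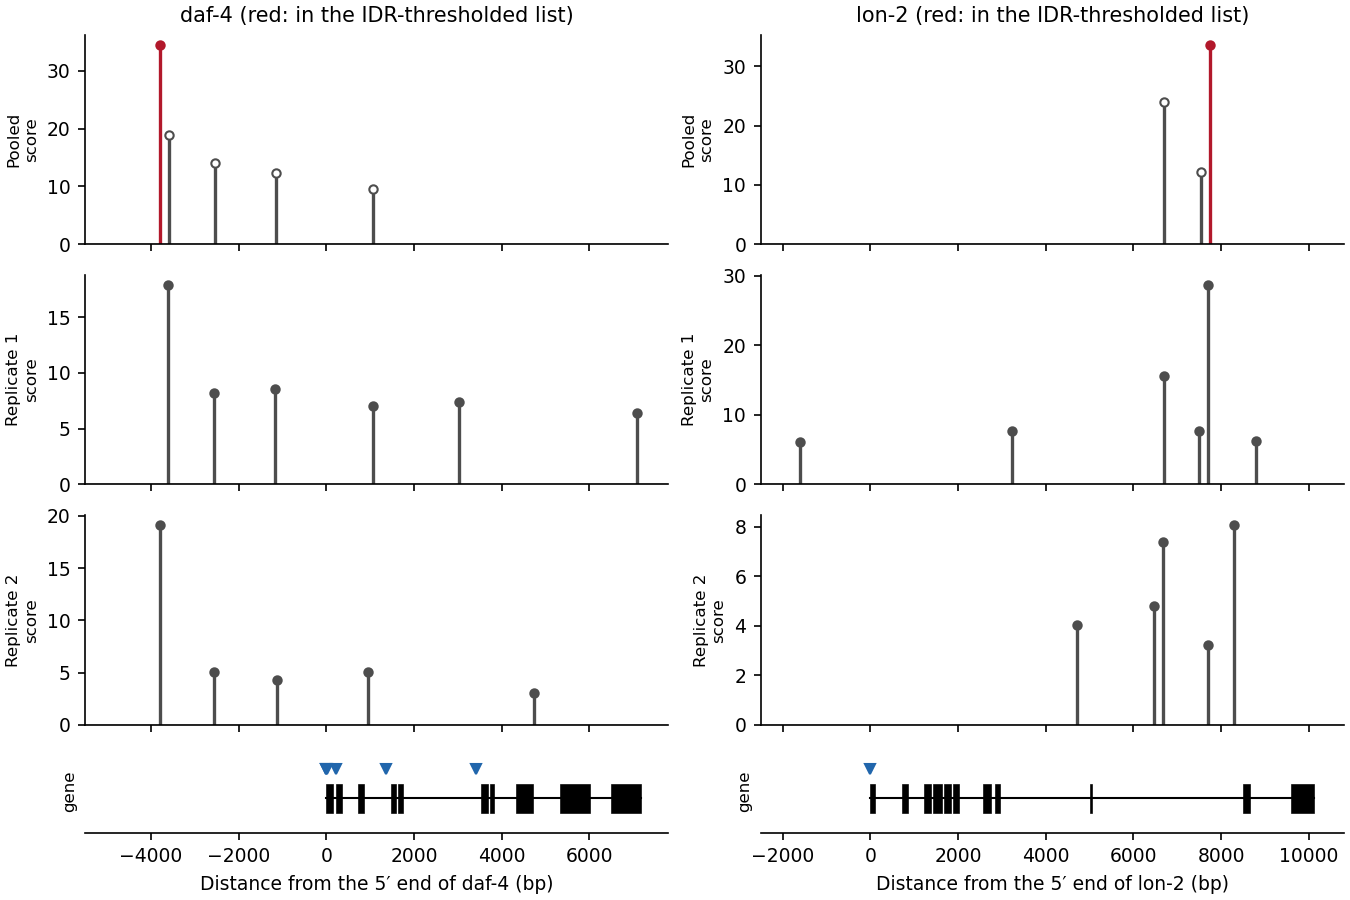
Summits assigned to daf-4 (left) and lon-2 (right) are placed by distance from each gene's annotated 5′ end in bp, with the authors' score as height on a separate axis for the pooled list, replicate 1 and replicate 2; exons and transcript starts are drawn below. The distal daf-4 site leads in both replicates, whereas the lon-2 summit at 7746 bp leads in replicate 1 (score 28.7) and is the weakest lon-2 peak in replicate 2 (score 3.22).

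Across the 6 IDR-thresholded peaks, 3 had a counterpart among the 1803 strongest peaks of both replicates, all at sma-9, against 65.6% of all IDR-thresholded peaks. Taking the 1803 strongest peaks of each replicate alone, sma-9 and lon-2 had a peak in replicate 1, where 7.65% of all protein-coding genes had a peak, and sma-9 and daf-4 in replicate 2, where 7.63% did. sma-9 was thus the only gene of the 9 that stood in the strongest peaks of each replicate. The ranks of the most distal sma-9 peak also lay 9.70-fold apart, which 3.31% of the IDR-thresholded peaks matched or exceeded, but both ranks were high. Of the 22 pooled peaks, 21 overlapped a peak of each replicate, against 56.3% of all pooled peaks; several of the 21 shared a counterpart with a neighbour.

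**Figure D4:**
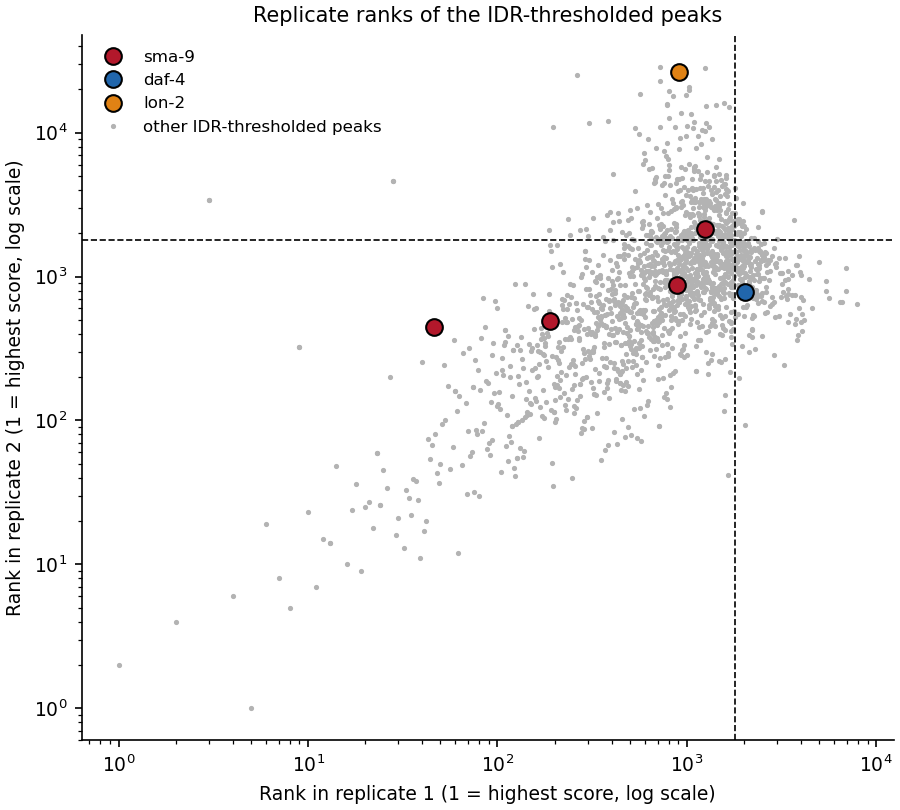
Each point is an IDR-thresholded peak, placed by the rank of its strongest overlapping peak in replicate 1 (horizontal) and replicate 2 (vertical), both on log scales with 1 as the highest score; dashed lines mark rank 1803. Of the 4 sma-9 points, 3 lie inside both lines; the other (rank 2152 in replicate 2), daf-4 (rank 2029 in replicate 1) and lon-2 (rank 26561 in replicate 2) each lie outside a line.

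None of the 6 summits fell in a promoter, taken as 500 bp before to 100 bp after the start of a protein-coding transcript, where 40.4% of all IDR-thresholded summits lay. Of the 6, 4 were intergenic and 2 intronic, against 30.6% and 19.8% of all IDR-thresholded summits. CAGGTG (complement CACCTG) was in 0 of the 6 windows and in 1.89% of all IDR-thresholded windows of the same length. GAGAGA was in 4 of 6, against 49.4% of all, and CAAGTG in 2 of 6, against 12.1% of all. CACACA and ACGCAG were in 1 window each, against 30.3% and 27.3% of all. The E-box CACATG was in none, against 12.2% of all windows. The E-box CAGCTG was in none, against 6.21%, and neither was CACGTG, against 4.66%. The Smad-binding letters GTCTAG were in none, against 4.10%, and CGTCTC was in none, against 33.5%. With 6 windows these counts are descriptions from which nothing is read. All the E-boxes and the repeats GAGAGA and CACACA were chosen with earlier results of these data known. GC content ran from 40.3% to 50.2% (median 47.0%), against a median of 45.8% over all IDR-thresholded windows.

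Other genes of transforming growth factor beta signalling and body size were also marked in part. Of 26 such genes, 5 had an IDR-thresholded peak (19.2%), against 7.76% of all protein-coding genes, and 21 a pooled peak (80.8%), against 45.5%. The sequence that could bring such a gene a peak was also longer, with a median of 9.1 kb against 4.5 kb over all protein-coding genes. daf-5, a Ski/Sno-related partner of the dauer pathway's Smads, had 4 IDR-thresholded peaks, all in introns and 2 of them overlapping; the strongest lay 11838 bp downstream of the 5′ end with a score of 97.6 and rank 136 of 1803. daf-14, a Smad gene of the dauer pathway, had 1 intronic peak (score 82.2) and daf-3, the common Smad gene of that pathway, 1 intergenic peak (score 42.1) that ranked 669 in replicate 1 and 4502 in replicate 2. kin-29, a kinase gene of body size control, had 2 overlapping promoter peaks (scores 62.0 and 31.9), and tsp-21, a tetraspanin gene that promotes BMP signalling, had 1 peak 161 bp downstream of its 5′ end (score 47.4). daf-8, another Smad gene of the dauer pathway, had none. An IDR-thresholded peak was found at 3 of the 9 BMP pathway genes, at 3 of 11 Wnt ligand and receptor genes and at 4 of 10 genes of the insulin receptor to FoxO pathway. A pooled peak was found at 7 of 9, 9 of 11 and 9 of 10 genes of these lists. The median sequence that could bring a gene a peak was 8.5, 6.4 and 10.1 kb in these lists. Among the strongest peaks of replicate 1 the counts were 2, 4 and 5 genes, and among those of replicate 2 they were 2, 1 and 4. No difference between these lists was tested, and no order is read from these counts.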

How the data were processed

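ZAG-1 chromatin immunoprecipitation peaks were analysed in 2 biological replicates of whole L2 larvae. Per the deposited file list, the authors called peaks on each replicate and on both pooled, each with a control alignment, and derived the IDR-thresholded list from these, in build ce11. The sources used here do not name the peak caller or its thresholds. Each peak has a score, a −log10 q-value and a summit offset, as deposited by the authors. Read depth is unknown, as the lists give no counts. The ce10 lists and the control were not used here. The IDR-thresholded list equals the 1803 highest-scoring pooled peaks.

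The summit was column 2 plus column 10, and coordinates are 1-based. Genes were those of Ensembl release 115 (WBcel235, the assembly of ce11), and sequence came from the RefSeq genome of that assembly. Summits were assigned to the nearest protein-coding 5′ end within 5 kb and to any gene body holding them. Replicate counterparts overlapped by at least 1 bp, and the highest-scoring one was taken. Elements were searched on both strands within 100 bp of the summit. Shares over all genes or peaks are given beside the main counts, and no test was run. The genes, lists and elements were chosen with earlier results of these data known. The rule for named genes took all 9 genes, members of the other list with an IDR-thresholded peak, and the genes with the most peaks. Assignment was tested on simulated summits. Python 3.11.15, numpy 2.4.6 and matplotlib 3.10.9 were used. Alternatives were other assignment rules and distance limits, the higher-scoring 50% of peaks, each replicate alone, other overlap rules, promoter sizes and windows.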

Additional observations from a re-analysis of the deposited data

How the results depend on the processing

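Of 46 alternative values for 9 results, 37 stayed within 1.5 times the main count. These include falls from 3 to 2 pathway genes with an IDR-thresholded peak, and counts of 0 that stayed at 0. With gene bodies alone, 2 IDR-thresholded peaks remained at the pathway, 1 of them at sma-9, since upstream peaks are then not assigned. By that rule 3 of the other signalling genes had a peak, against 2.27% of all protein-coding genes. A limit of 1 kb left 3 peaks at the pathway and 2 at sma-9, since upstream peaks beyond it are then not assigned. Under that limit 5.79% of all protein-coding genes had a peak. The higher-scoring 50% of peaks left 1 gene, sma-9, with 3 peaks, against 4.03% of all genes with a peak. Among the 1803 strongest peaks of both replicates, 3 of the 6 peaks were found. With promoters of 1000 bp, 1 summit was in a promoter, the sma-9 one 782 bp upstream. The lon-2 peak was lost without replicate 1 or with nearest starts alone, and the daf-4 peak without replicate 2 or with a limit of 2 kb. Leaving out a replicate meant taking the 1803 strongest peaks of the other alone, so the counts of pathway genes repeat those above. It gave 2 genes either way, against 7.63% of all genes without replicate 1 and 7.65% without replicate 2. There were 4 to 5 peaks, 3 to 4 of them at sma-9, and 4 to 5 of the other signalling genes had a peak. A limit of 10 kb, chosen after seeing the data, gave 3 genes with 6 peaks, against 8.07% of all protein-coding genes with a peak. No paired analysis was possible because there is a single group. Depth is unknown, so weak or absent peaks cannot be read as absence of binding.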

Other observations

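The windows at several pathway summits held long runs of only A and G, or only C and T, a feature measured after the sequences had been seen. The longest such run was 38 bases at the sma-9 peak 782 bp upstream, which 1.11% of all IDR-thresholded windows matched or exceeded, and 25 bases at the intronic sma-9 peak (6.71%). It was 21 bases at daf-4 (252 of the 1803 windows), 20 at lon-2 (16.4%), 14 at the sma-9 peak 1418 bp upstream (44.9%) and 12 at the strongest sma-9 peak (59.5%). The median was 20.5 bases over the 6 windows and 13 over all IDR-thresholded windows. The peak with the highest score had the shortest run and the one with the lowest score the longest; with 6 peaks, 4 of them at sma-9, no relation was tested.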
